A study of Mus musculus with 6 samples.

Results

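The nucleotide synthesis and folate one-carbon enzymes examined here are 35 named mouse genes that make, interconvert or salvage purine and pyrimidine nucleotides, or that carry the folate-bound carbon units used in those reactions. They were taken by gene symbol from a deposited table of 18493 genes, and 35 of 35 were found. The cells were regulatory T (Treg) cells, obtained from the spleen and lymph node through a CD4+CD25+YFP+ sort of untreated female C57BL/6 mice aged 7 weeks. The control group (WT) was Foxp3cre/+, and the knockout group (cKO) was Foxp3cre/+ TKTfl/fl, so that both groups carry 1 copy of the Treg-specific Foxp3 Cre allele and only the cKO mice carry the floxed alleles of transketolase, the gene Tkt. Each group has 3 libraries, prepared with the NEBNext Ultra kit and sequenced on an Illumina instrument. The design text calls the mice chimeric. Foxp3 lies on the X chromosome, and females with 1 Cre copy are mosaics in which the YFP+ gate takes cells with the Cre allele active, beside Treg cells that keep Tkt. Which exons were floxed, and whether a library pools animals, is not in the labels, and p-values reflect only the spread among the 6 libraries.

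As background, purine and pyrimidine nucleotides are built on ribose 5-phosphate, activated as phosphoribosyl pyrophosphate (PRPP). Transketolase belongs to the non-oxidative arm of the pentose phosphate route, where ribose 5-phosphate and glycolytic intermediates are interconverted. Purine rings also need formyl groups and thymidylate a methylene group, both carried by folate and drawn mostly from serine. Resting lymphocytes lean on salvage and turn on the synthesis enzymes when they divide, and ribonucleotide reductase, thymidylate synthase, cytosolic thymidine kinase and dUTPase are classical S phase genes.

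No enzyme of the 35 passed the test between cKO and WT Treg cells, in either direction, and most were measured tightly enough to bound the difference. The median log2 fold change of the members, cKO over WT, was 0.01, beside 0.00 for all 12887 genes tested. The 95% interval lay within a 2-fold change in either direction for 34 of the 35 members, the exception being Rrm2, the S phase small subunit of ribonucleotide reductase. The lowest values belonged to the S phase-linked members Rrm2, Tyms, Tk1 and Rrm1, and the highest to Dctd and Dhodh. Leaving out single libraries moved several of these differences, as the values per library show.

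The promoters of Rrm1, Rrm2 and Tyms are shown, which are S phase-linked members at the low end of the list. Those of the S phase-linked members Tk1, which stands lower than Rrm1, and Dut are not printed. Their windows held none of the motifs marked here. The sequences are from RefSeq on build GRCm38.p6 and run 5′ to 3′ on the strand of the gene, from 250 to 21 bases before the annotated start. Capitals mark matches on either strand to the CCAAT box (CCAAT), the E-box (CACGTG) and the E2F core (TTNNCGC, where each N is C or G).
Rrm1, chr7:102441445-102441674, plus strand: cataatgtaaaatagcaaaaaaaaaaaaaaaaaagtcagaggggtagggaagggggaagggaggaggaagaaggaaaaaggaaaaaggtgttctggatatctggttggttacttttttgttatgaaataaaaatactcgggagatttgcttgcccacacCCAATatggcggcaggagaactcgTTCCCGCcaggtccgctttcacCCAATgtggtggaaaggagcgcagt
Rrm2, chr12:24708004-24708233, plus strand: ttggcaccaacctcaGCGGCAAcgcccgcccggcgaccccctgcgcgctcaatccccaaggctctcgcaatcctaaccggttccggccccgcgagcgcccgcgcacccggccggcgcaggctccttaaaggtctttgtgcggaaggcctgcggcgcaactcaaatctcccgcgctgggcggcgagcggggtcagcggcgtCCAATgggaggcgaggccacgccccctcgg
Tyms, chr5:30073646-30073875, minus strand: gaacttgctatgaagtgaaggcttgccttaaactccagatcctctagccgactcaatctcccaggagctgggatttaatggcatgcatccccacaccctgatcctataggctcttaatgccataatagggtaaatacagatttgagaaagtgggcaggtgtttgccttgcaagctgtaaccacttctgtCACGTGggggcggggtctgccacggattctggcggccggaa
The Rrm1 window holds a CCAAT box at 91 and at 45 bases before the start, with an E2F core at 67 bases between them. The Rrm2 window holds a CCAAT box at 50 bases and an E2F core on the opposite strand at 235 bases before the start. The Tyms window holds an E-box at 61 bases before the start and neither of the other motifs.

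The table gives estimated read counts per gene, and the libraries held 17180577 to 18215168 of them in total. All 35 members passed the filter on low counts, with 74 to 2771 estimated reads for a member in a library. The targeted gene Tkt (chr14:30549131-30574724) stood at 126, 97.1 and 121 CPM (reads scaled to library size) in WT1, WT2 and WT3 and at 52.5, 44.8 and 31.9 CPM in cKO1, cKO2 and cKO3. Its groups did not overlap and its log2 fold change was -1.41 ± 0.19 (SE, n = 3 per group), with an adjusted p of 0.0516 in edgeR's quasi-likelihood test, just outside the threshold of 0.05. It passed that threshold in 6 of the 15 alternative fits. Treg and T cell genes were high in every library, with Foxp3 at 458 to 686, Il2ra at 628 to 833, Cd4 at 735 to 930 and Cd3e at 309 to 425 CPM. Ctla4, the most abundant Treg marker, stood at 807, 1727 and 753 in WT and 977, 739 and 492 CPM in cKO. Its log2 fold change was -0.57 ± 0.37, with overlapping groups. Among 7 Treg markers 4 were below 0 and 3 above, with a median of -0.10 and none called. For 2 of them all cKO values lay below all WT values, beside 8.12% of all genes. Among 5 CD4 T cell markers 3 were below 0 and 2 above, with a median of -0.04 and none called. The first principal component, with 36.1% of the variance, set WT2 and cKO1 apart at 25.4 and 33.2, cKO2 at 8.11 and the other 3 libraries between -25.9 and -18.4. Genes of other cell types differed between libraries too. The 7 erythroid markers summed to 198.6 CPM in cKO1 and to 0.277 to 5.80 CPM in the other 5 libraries. The 8 B cell markers summed to 53.6 to 88.1 in WT and 45.7 to 112 CPM in cKO, mostly from Cd74. Of the 6 tested 5 had a log2 fold change above 0, with a median of 0.91 and none called. For 2 of these all cKO values lay above all WT values, beside 6.1% of all genes. The 9 myeloid markers summed to 222 to 234 CPM in WT and 218 to 274 CPM in cKO, mostly from Ctss, and of the 8 tested 7 had a log2 fold change above 0, with a median of 0.34 and none called. The 6 stromal markers, led by Col1a1, summed to 3.49, 20.3 and 4.39 in WT and 21.3, 16.5 and 21.3 CPM in cKO, and the 4 tested were all above 0, with a median of 1.05 and none called. The 6 CD8 T and NK markers, led by Cd8b1, summed to 31.1 to 38.6 CPM, with Ncr1 at 0 in 5 libraries. Of the 4 tested 2 were below 0 and 2 above, with a median of -0.19 and none called. The part of these cells in the results was not tested, and in bulk samples fewer cells of a type and less RNA per cell cannot be told apart.

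Levels of the enzymes were compared between genes on the deposited per-length scale, FPKM, which divides by gene length and library depth. The highest was Nme2, a nucleoside diphosphate kinase that makes triphosphates, at a mean of 140 FPKM over the 6 libraries and 119 to 155 across them. Impdh2, the inosine monophosphate (IMP) dehydrogenase that starts the branch to guanine nucleotides, followed at 54.4 FPKM, Adss at 53.4, Hprt at 49.4 and Aprt at 47.9. At the other end, Dctd, the dCMP deaminase that feeds thymidylate synthesis, was at 3.91 FPKM. The range was 35.9-fold, the median member stood at 17.1 FPKM, and 27 of 35 members were over 10 FPKM. Of the 34 pairs of neighbours in this order, 1 pair did not overlap across the libraries, Nme2 and Impdh2. The order was close in both groups, and the largest shift in rank was 6 places, for Cad.

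**Figure D1:**
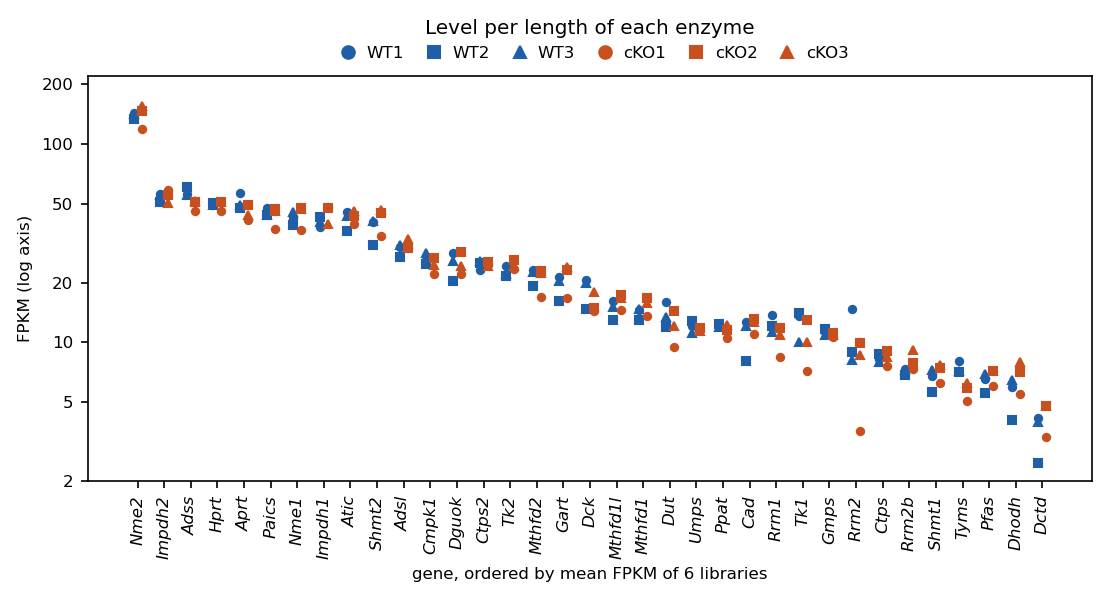
Level of each of the 35 enzymes in FPKM on a log axis, with 1 point for each library and the members ordered by mean level. Nme2 stood above every other enzyme at 119 to 155 FPKM, Dctd was lowest at a mean of 3.91 FPKM, and WT and cKO points lay together for most genes.

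Across the 12887 genes, 26 were called lower in cKO (0.202%), 1 was called higher (0.00776%) and 27 were called in either direction (0.21%), at an adjusted p under 0.05. With 0 of 35 members called by edgeR, and 0 by DESeq2 or limma-voom, the count does not stand apart from that background. At an unadjusted p under 0.05, 2 members, Adss and Tyms, were counted, beside 7.69% of all genes. In 2 members, again Adss and Tyms, all cKO values lay below all WT values, beside 8.12% of all genes, and in 1 member, Tk2, all lay above, beside 6.1%. At this group size the smallest two-sided p of an exact permutation test on 1 gene is 0.1.

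The members' differences were small and their median error was below that of all genes. Of the 35, 16 had a log2 fold change below 0 and 19 above, and the quartiles of the values were -0.10 and 0.12, beside -0.11 and 0.10 for all genes. Intervals lay within a 2-fold change for 97.1% of members and 82.2% of all genes, and within a 1.5-fold change for 85.7% and 64.2%. The median standard error was 0.09 for members and 0.13 for all genes, but the members were also expressed higher, with a median of 51.0 CPM beside 25.6 CPM. Adjusted p ran from 0.304 for Tyms to 0.997.

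**Figure D2:**
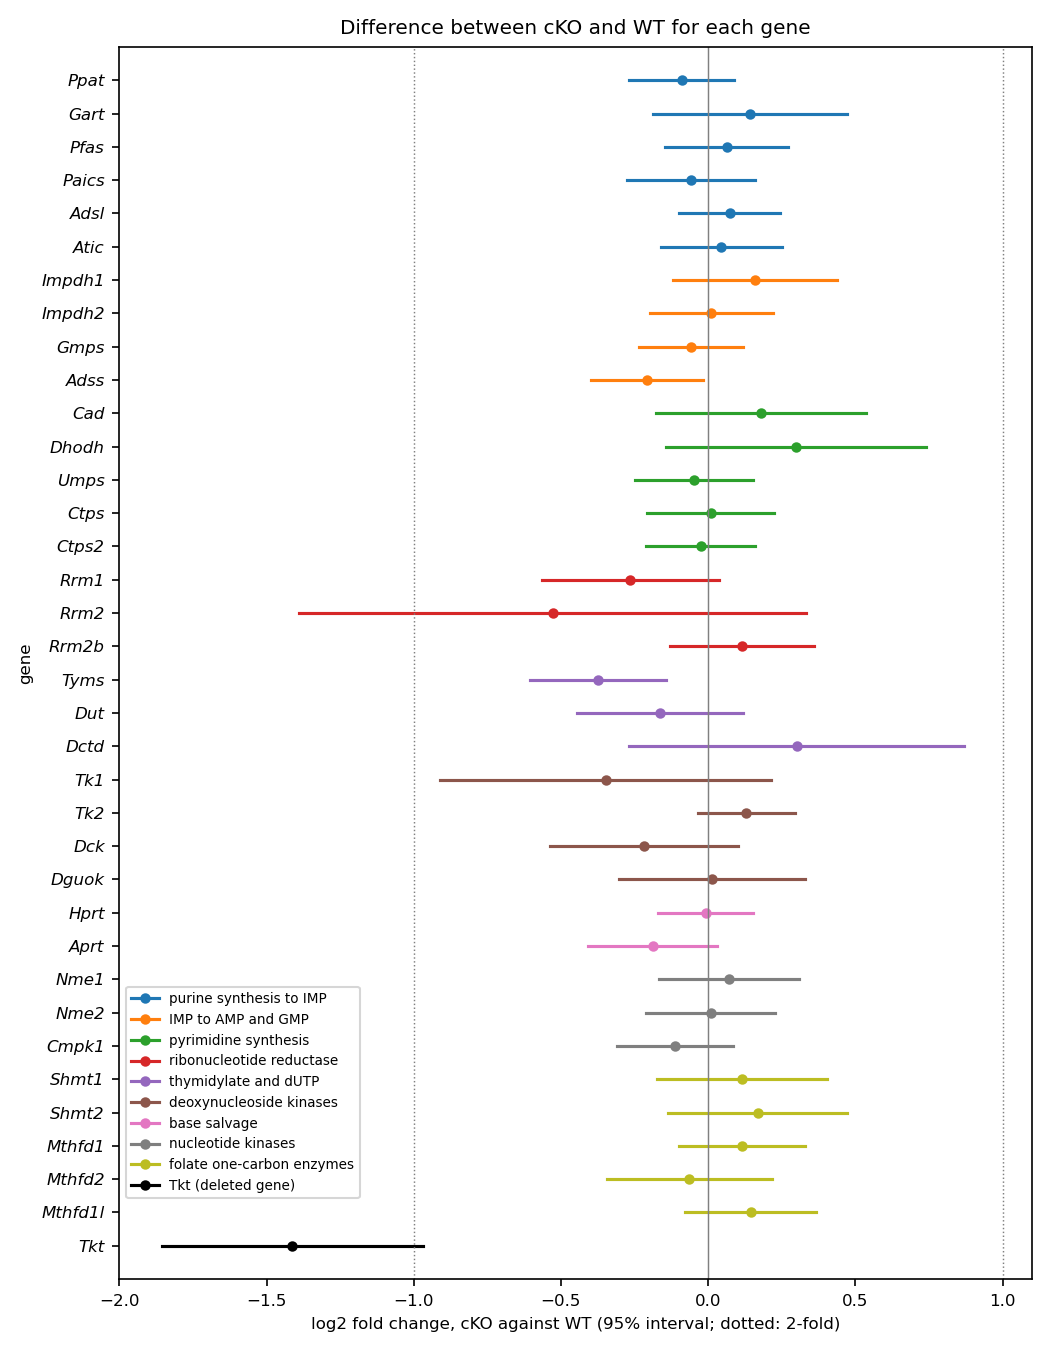
Log2 fold change of each member and of Tkt, cKO over WT, with its 95% interval from the edgeR fit, coloured by role; dotted lines mark a 2-fold change. Among the members the interval of Rrm2 alone crosses a dotted line, and those of Tyms and Adss alone lie wholly below 0, while Tkt stands at -1.41.

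Purine synthesis builds the ring of IMP on PRPP, and its 6 enzymes had a median log2 fold change of 0.05, with 2 below and 4 above 0. Ppat, which commits PRPP to the purine ring, stood at 47.9, 51.1 and 47.9 CPM in WT1 to WT3 and at 43.4, 46.2 and 48.4 CPM in cKO1 to cKO3. The groups of Ppat overlapped, and its log2 fold change was -0.09 ± 0.08 (SE), with a 95% interval of -0.27 to 0.09. Gart, a trifunctional enzyme that performs early steps and 1 folate-dependent formylation, stood at 70.7, 56.9 and 69.0 in WT and 58.9, 78.2 and 79.9 CPM in cKO. The lowest library of each group for Gart was WT2 and cKO1, and its fold change was 0.14 ± 0.14, or 0.05 without WT2 and 0.27 without cKO1. Pfas, an amidotransferase of the pathway, gave 0.06, and Adsl, which releases fumarate in the IMP and AMP routes, 0.07. Atic, which adds the last formyl group and closes the ring, gave 0.05. Paics, which adds CO2 and aspartate, gave -0.06 with groups at 94.0 ± 3.41 and 90.2 ± 9.45 CPM (SD, n = 3). Without WT2 the median of the 6 enzymes was -0.01, with 3 on each side of 0.

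Ppat and Paics are neighbours that face away from each other on chromosome 5, and their annotated spans share 277 bases at chr5:76951302-76951578. The sources used here do not give whether counting used strand, so reads in shared stretches could not be assigned with certainty. The same holds for Gmps and Slc33a1 (1101 shared bases), Ctps2 and S100g (2608), Tk1 and Afmid (585), Shmt2 and Ndufa4l2 (32) and Cad and Atraid (14). For 15 members the estimated counts were whole in all libraries, and for 20 they were not in at least 1.

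Beyond IMP, the branch to AMP and GMP held 1 of the 2 members with lower values in all cKO libraries. Adss (chr1:177763176-177796695) encodes the adenylosuccinate synthase that commits IMP to AMP. It stood at 141, 159 and 140 CPM in WT1 to WT3 and at 121, 130 and 130 CPM in cKO1 to cKO3. Its groups did not overlap, and the highest library was WT2, in contrast to most members. The log2 fold change was -0.21 ± 0.08, with a 95% interval of -0.40 to -0.02, an unadjusted p of 0.0363 and an adjusted p of 0.591. On the GMP side, Impdh1, the other IMP dehydrogenase, gave 0.16 with groups at 105 ± 11.1 and 117 ± 14.5 CPM, Impdh2 gave 0.01, and Gmps, which converts XMP to GMP, gave -0.06.

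The 5 pyrimidine enzymes had a median log2 fold change of 0.01. Cad, the multifunctional protein of the early steps to dihydroorotate, stood at 89.6, 59.9 and 86.3 in WT and 83.0, 93.9 and 90.1 CPM in cKO. WT2 alone was low for Cad, the other 5 libraries lay between 83.0 and 93.9 CPM, and the fold change was 0.18 ± 0.15, or 0.02 without WT2. Dhodh, the mitochondrial dehydrogenase that links the pathway to the respiratory chain, stood at 12.6, 9.21 and 14.1 in WT and 12.3, 15.2 and 16.8 CPM in cKO. Its groups overlapped through cKO1, and its fold change was 0.30 ± 0.19, with an interval of -0.14 to 0.74. It was 0.14 without WT2 and 0.42 without cKO1. Umps, which completes UMP, gave -0.05, and the CTP synthases Ctps and Ctps2 gave 0.01 and -0.03. Ctps2 was the more abundant CTP synthase on the per-length scale, at 2.98 ± 0.209 times Ctps in WT and 2.97 ± 0.227 times in cKO (SD, n = 3).

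Ribonucleotide reductase turns ribonucleotides into deoxyribonucleotides and pairs the large subunit Rrm1 with a small subunit, Rrm2 in S phase or Rrm2b outside it. Rrm2 (chr12:24708254-24714146) stood at 31.5, 19.97 and 17.6 CPM in WT1 to WT3 and at 8.02, 21.5 and 18.4 CPM in cKO1 to cKO3. The highest value was WT1, the lowest cKO1, and the other 4 libraries mixed between 17.6 and 21.5 CPM. The log2 fold change of Rrm2 was -0.53 ± 0.37, with an interval of -1.39 to 0.33 and an adjusted p of 0.846. It was -0.21 without cKO1, -0.23 without WT1 and -0.80 without cKO2. Rrm1 (chr7:102441695-102469771) stood at 54.6, 50.1 and 45.1 in WT and 34.8, 46.9 and 42.9 CPM in cKO. Its groups overlapped by 1 library, cKO2 over WT3, and its fold change was -0.26 ± 0.13, with an interval of -0.56 to 0.04 and an adjusted p of 0.724. It was -0.15 without cKO1 and -0.36 without cKO2. Rrm2b stood at 28.4, 23.3 and 28.0 in WT and 27.2, 28.4 and 30.9 CPM in cKO, for a fold change of 0.12 ± 0.10. The per-length ratio of Rrm1 to Rrm2b was 1.9, 1.8 and 1.6 in WT and 1.1, 1.5 and 1.2 in cKO, with no overlap. In CPM the groups of the same ratio did overlap, with cKO2 above WT3. The deposited FPKM of Rrm2b did not scale with its estimated reads. It was 6.81 from 390 reads in WT2 and 7.36 from 513 reads in WT1. The ratio of Rrm1 to Rrm2b was picked out of a set of ratios computed between related enzymes, and no ratio was tested. The ratio of Rrm2 to Rrm2b was 2.0, 1.3 and 1.1 in WT and 0.49, 1.3 and 0.94 in cKO, where the groups overlapped.

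Thymidylate synthase, Tyms (chr5:30038546-30073645), methylates dUMP to thymidylate with a folate-bound carbon, and had the lowest p of the members. It stood at 31.2, 28.5 and 27.9 CPM in WT1 to WT3 and at 20.1, 23.2 and 24.2 CPM in cKO1 to cKO3, so all cKO libraries were below all WT libraries. The log2 fold change was -0.37 ± 0.10, with an interval of -0.61 to -0.14, an unadjusted p of 0.00624 and an adjusted p of 0.304. Without cKO1 it was -0.30, and over the 15 alternatives it lay between -0.43 and -0.30 with adjusted p from 0.251 to 0.862. Dut, the dUTPase that makes dUMP and keeps uracil out of DNA, stood at 47.0, 38.4 and 39.0 in WT and 32.3, 40.8 and 38.0 CPM in cKO. Its groups overlapped and its fold change was -0.16 ± 0.12, or -0.07 without cKO1 and -0.24 without cKO2. Dctd, which makes dUMP from dCMP, went the other way at 7.21, 4.42 and 7.04 in WT and 5.93, 8.40 and 8.69 CPM in cKO. Its fold change was 0.30 ± 0.24 with an interval of -0.27 to 0.87, and the lowest library of each group was again WT2 and cKO1. It was 0.11 without WT2 and 0.46 without cKO1.

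None of the 4 kinases that salvage deoxynucleosides passed the test. Tk1, the cytosolic thymidine kinase of S phase, stood at 18.4, 18.8 and 12.6 in WT and 9.30, 16.7 and 13.0 CPM in cKO. Its groups overlapped, and the fold change was -0.35 ± 0.24, or -0.16 without cKO1 and -0.57 without cKO2. Dck, the deoxycytidine kinase, stood at 62.4, 46.2 and 60.4 in WT and 45.2, 45.6 and 54.4 CPM in cKO, for a fold change of -0.22 ± 0.14 with overlapping groups. Tk2, the mitochondrial thymidine kinase, stood at 65.0, 63.4 and 60.1 in WT and 69.3, 70.9 and 66.2 CPM in cKO. It was the only member with all cKO libraries above all WT libraries, by 0.13 ± 0.07 on the log2 scale, with an interval of -0.03 to 0.29 and an adjusted p of 0.782. Dguok, the mitochondrial deoxyguanosine kinase, gave 0.01 ± 0.13. For the purine bases, Hprt recovers hypoxanthine and guanine and Aprt recovers adenine, both on PRPP. Hprt was the steadiest member, at 63.1 to 68.8 CPM in the 6 libraries and a fold change of -0.01 ± 0.07, and Aprt gave -0.19 ± 0.09 from groups at 43.0 ± 3.26 and 37.8 ± 2.96 CPM. Among the nucleotide kinases, Nme1 gave 0.07, Nme2 0.01 and Cmpk1, the UMP and CMP kinase, -0.11.

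The 5 folate enzymes had a median log2 fold change of 0.12, with 4 above 0 and 1 below, and none passed the test. Shmt2, the mitochondrial serine hydroxymethyltransferase that supplies most of the carbon, stood at 86.1, 68.3 and 85.4 in WT and 76.6, 96.7 and 96.0 CPM in cKO. WT2 and cKO1 were again the lowest of their groups, and the fold change was 0.17 ± 0.13, with an interval of -0.13 to 0.47. It was 0.07 without WT2 and 0.27 without cKO1. Its cytosolic counterpart Shmt1 gave 0.11 ± 0.12, and Shmt2 exceeded it per length 5.69 ± 0.249 times in WT and 5.91 ± 0.333 times in cKO. Mthfd1l, the mitochondrial formate synthase, gave 0.14 ± 0.09, and Mthfd1, the cytosolic enzyme that takes formate back to folate, 0.12 ± 0.09. Mthfd2, the mitochondrial dehydrogenase and cyclohydrolase known for its rise in dividing cells, stood at 46.9, 41.0 and 46.6 in WT and 36.1, 47.3 and 45.3 CPM in cKO. Its groups overlapped and its fold change was -0.06 ± 0.12. The per-length ratio of Mthfd2 to Mthfd1 was 1.6, 1.5 and 1.5 in WT and 1.2, 1.4 and 1.4 in cKO, and that of Mthfd2 to Mthfd1l was 1.4, 1.5 and 1.5 in WT and 1.2, 1.3 and 1.3 in cKO. Neither ratio overlapped between groups. Both share the numerator Mthfd2, they were picked out of 12 ratios computed between related enzymes, and no ratio was tested. The median of the 5 was 0.07 without WT2 (4 above 0) and 0.18 without cKO1 (5 above 0). Of the 6 members that act in mitochondria, Dhodh, Tk2, Dguok, Shmt2, Mthfd2 and Mthfd1l, 5 were above 0, with a median of 0.14. Without WT2 it was 0.07, with 4 of 6 above 0.

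The S phase-linked members Rrm1, Rrm2, Tyms, Dut and Tk1 were all below 0, with a median log2 fold change of -0.35 and 0 of 5 called by edgeR or by DESeq2 (1 at an unadjusted p under 0.05, Tyms, beside 7.69% of all genes). Their mean log2 CPM was 5.10, 4.87 and 4.68 in WT1 to WT3 and 4.15, 4.79 and 4.64 in cKO1 to cKO3. WT1 was highest and cKO1 lowest, and cKO2 exceeded WT3. A list of 40 cell cycle and DNA replication genes ran in nearly the same order, at 4.20, 4.10 and 3.72 in WT and 3.07, 3.97 and 3.79 in cKO. The median fold change of this list was -0.40, with 36 genes below 0. Neither tool called any of them, where edgeR called 27 and DESeq2 177 of all 12887 genes. In this list 3 genes had an unadjusted p under 0.05 in edgeR, beside 7.69% of all genes. Its gene with the lowest p was Prc1, a spindle midzone protein, at 15.03, 13.2 and 11.1 in WT and 5.93, 8.94 and 8.58 CPM in cKO, a log2 fold change of -0.74 ± 0.19 and an adjusted p of 0.304. Mki67, the proliferation marker Ki-67, stood at 126, 136 and 78.3 in WT and 35.3, 88.2 and 81.0 CPM in cKO, a fold change of -0.73 ± 0.35. Without cKO1, the library with the erythroid reads, the median of both lists was -0.16. With each other library left out in turn, the median of the S phase-linked members ran from -0.40 to -0.23. That of the cell cycle genes ran from -0.60, without cKO2, to -0.26, without WT1. Without WT2 and cKO1 together the median was -0.15 for the S phase-linked members and -0.10 for the cell cycle genes. Tyms then remained at -0.32 with an adjusted p of 0.293.

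**Figure D3:**
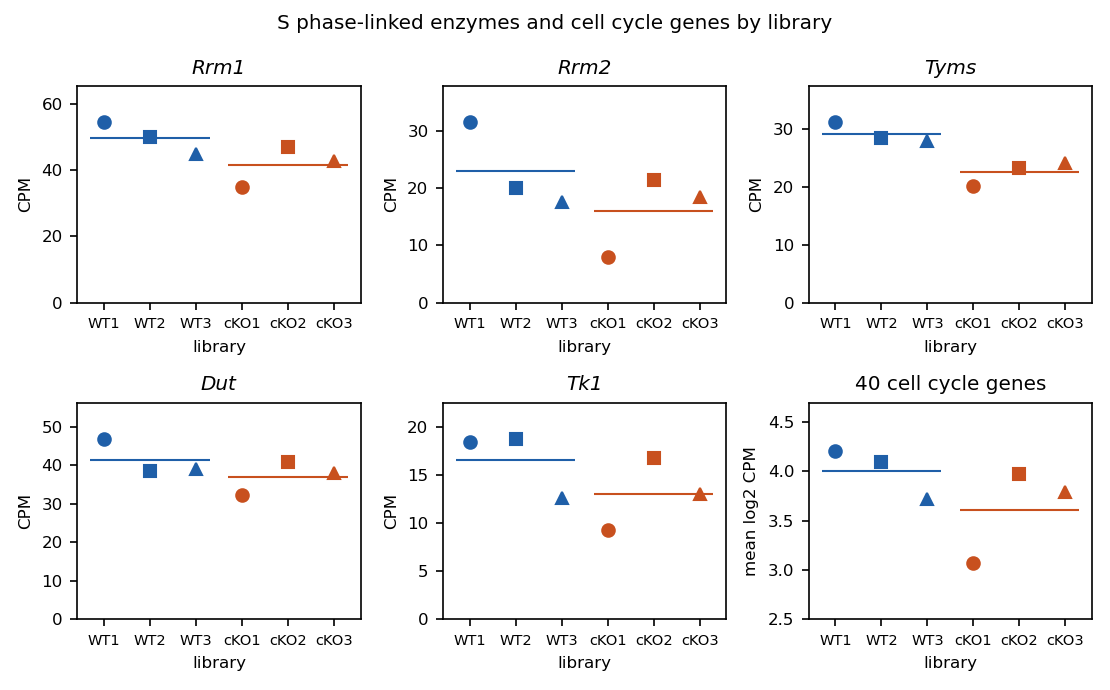
CPM of the 5 S phase-linked members per library, with 1 panel for each on an axis from 0, and in the last panel the mean log2 CPM of the 40 cell cycle and DNA replication genes on an axis that does not start at 0; lines are the group means. cKO1 is the lowest library in every panel, and Tyms alone shows no overlap between groups.

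The same libraries recurred across the list. cKO1 was the lowest of the cKO libraries for 29 of 35 members (82.9%), beside 37.9% of all genes, and WT2 the lowest of the WT libraries for 20 (57.1%), beside 42.1%. Both held for 18 members (51.4%), beside 20.6% of all genes. Rrm2 varied most, with an SD of 0.64 in log2 CPM over the 6 libraries, followed by Tk1 at 0.39, Dctd at 0.35 and Dhodh at 0.30, while Hprt had 0.045. Without WT2 and cKO1 together, the median of the members was 0.02, with 20 above and 15 below 0, and no member was called.

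**Figure D4:**
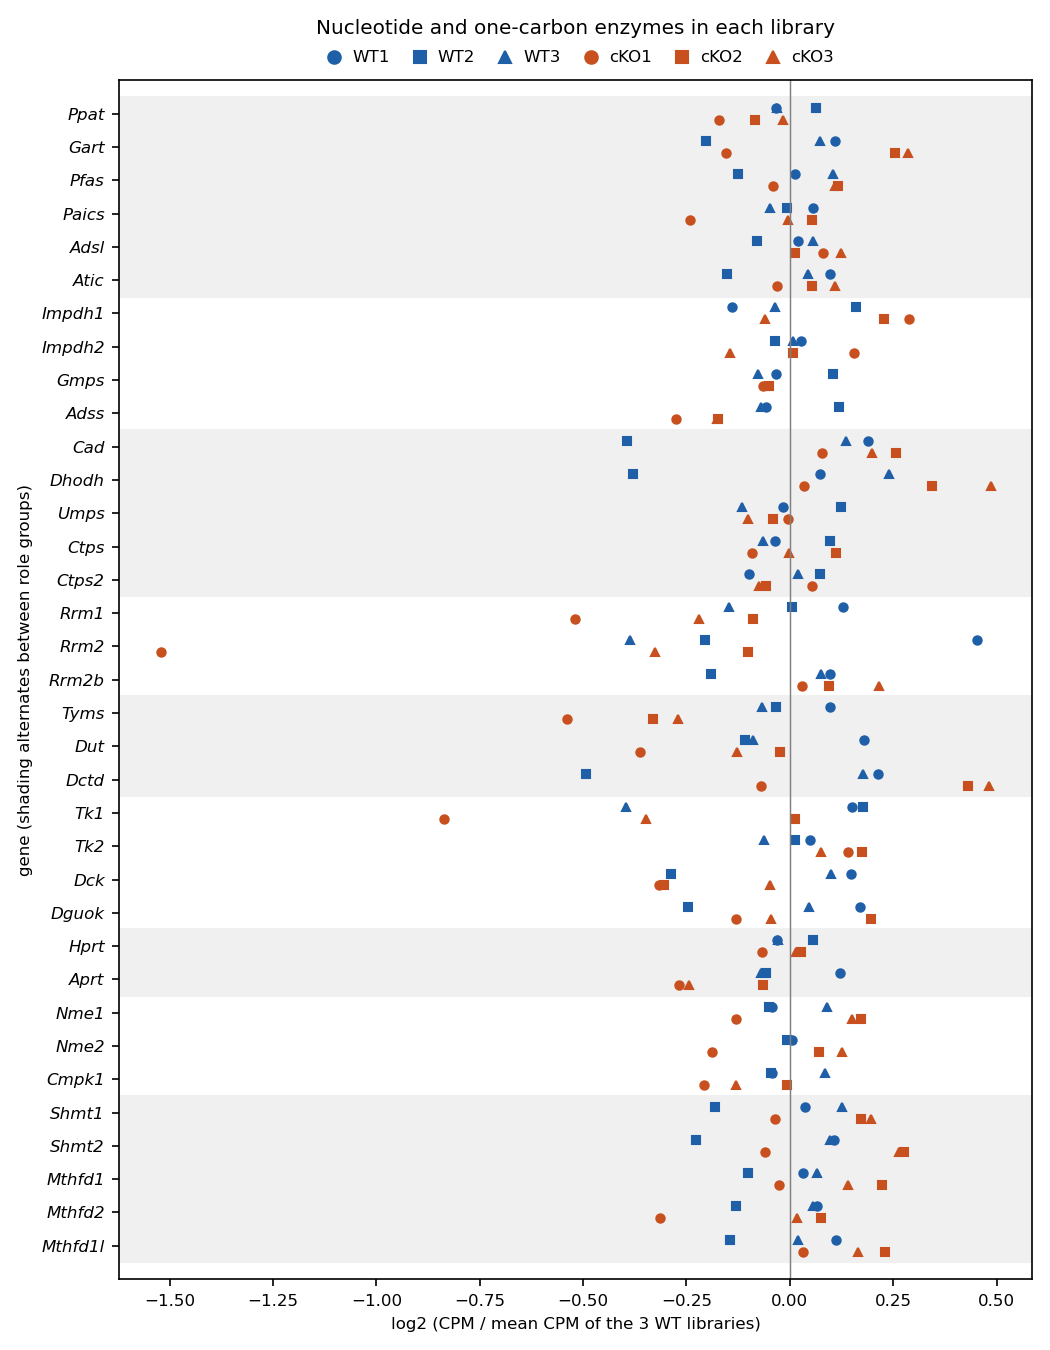
Level of each member in each library, as the log2 ratio of its CPM to the mean CPM of the 3 WT libraries, with genes in rows and 1 point per library; shading alternates between role groups. cKO1 is the lowest cKO point for 29 of 35 members, Rrm2 spreads most, and Hprt lies within a narrow band.

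The genes around the pathway were counted from further lists, and edgeR called none in any of them. At an unadjusted p under 0.05 in edgeR there was 1 in PRPP supply and 1 in breakdown, beside 7.69% of all genes. The folate, salvage and regulator lists had 0, and the cell cycle list, described above, had 3. Over all these lists DESeq2 called 1 gene, which was Tkt. In PRPP and ribose supply, 12 genes were tested with a median of -0.04 and Tkt itself as the gene with the lowest p. The PRPP synthetases Prps1 and Prps2 gave -0.12 ± 0.10 and -0.09 ± 0.08. In further folate and one-carbon genes, 16 of 18 were tested, with a median of -0.01. In further nucleotide kinases and salvage, 16 of 19 were tested with a median of 0.07, led by Uck2, a uridine and cytidine kinase, at 0.19 ± 0.10 and an adjusted p of 0.769. In nucleotide breakdown and dNTP control, 17 of 20 were tested with a median of 0.01, led by Ampd3, an AMP deaminase, at 0.23 ± 0.09 and an adjusted p of 0.626. Samhd1, the triphosphohydrolase that degrades deoxynucleotides, gave 0.15 ± 0.13, and its level of 263 ± 42.6 FPKM in WT and 290 ± 19.6 FPKM in cKO was above that of every member. Of the Myc and E2F regulators, which act on these enzymes, 18 of 19 were tested with a median of -0.06. The lowest p was that of E2f7, a repressor of S phase genes, at -0.61 ± 0.28 and an adjusted p of 0.684, and Myc gave 0.12 ± 0.22.

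Promoter entries were found for 32 of the 35 members, and the 250 bases before each annotated start were searched on both strands for the motifs spelled out beside the Rrm1, Rrm2 and Tyms sequences. The E2F core was present in 7 of 32 members (21.9%), namely Adss, Atic, Ctps, Mthfd1, Ppat, Rrm1 and Rrm2, beside 9.01% of all 27025 genes with an entry and 16.0% of 9900 tested genes. The E-box was present in 5 (15.6%), namely Atic, Impdh2, Nme1, Paics and Tyms, beside 6.86% of genes with an entry and 9.74% of tested genes. The CCAAT box was present in 10 (31.2%), beside 37.5% and 41.1%. Among the S phase-linked members the windows of Dut and Tk1 held none of the letters searched. These matches describe letters in the windows and were not tested as sites.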

How the data were processed

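Sorted Treg cells of 3 WT and 3 cKO libraries were measured by RNA-seq. The submitters' processing notes list the build mm10 and the tools DESeq2 1.16.1, featureCounts 1.5.0-p3 and HISAT2 2.0.5, without role or order. The authors deposited estimated counts per gene and library, not normalized; 45.4% to 46.3% of the values of a library were not whole to within 0.01, for a reason that the sources used here do not give. A further set of deposited columns behaves as FPKM, judged from the values: gene lengths implied by the ratio of counts to FPKM lay within 5% of the gene's median over libraries for 94.6% of the values of 7997 genes. The authors' group means were not used.

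Counts were rounded and tested with edgeR 4.0.16 in R 4.3.3 (quasi-likelihood, TMM scaling, filterByExpr with a minimum count of 10, Benjamini-Hochberg adjustment over 12887 genes), without covariates. CPM values use the TMM-scaled library sizes. Fold changes are cKO over WT, with SE taken from the F statistic. The fit was tested on simulated data. The 15 alternatives included DESeq2 1.42.0, limma 3.58.1 (voom), other scalings and filters, a replicate block and left-out libraries. All members are named, with the gene of lowest p in each further list and the most abundant marker of each other cell type; Prps1, Prps2, Samhd1, Mki67 and Myc were added after their values were seen, and some genes of the lists are not reported here. The members and lists were chosen with earlier results of these data known. Promoters and coordinates are from RefSeq (GRCm38.p6). Promoter windows that lie inside another annotated exon or transcript were searched but not printed.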

Additional observations from a re-analysis of the deposited data

How the results depend on the processing

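No member was called in any of the 15 alternatives, and the median of the members stayed within 1 SD between libraries of its main value. The number of all genes called, 27, became 177 with DESeq2, 43 without a filter, 71 without WT2 and cKO1 together, and 0 to 30 with 1 library left out (30 without WT2, 0 without any other). Deviations of same-numbered libraries had correlations of -0.278, 0.0624 and 0.261, within the range of -0.38 to 0.31 for differently numbered ones. With 3 libraries per group these values cannot show whether the numbers mark pairs, and the labels name no pairing. With the replicate block 0 genes were called, and the lowest adjusted p of a member, that of Tyms, was 0.652. Of the members, 24 kept their sign in all alternatives. The other 11 had log2 fold changes of at most 0.06 in size, and their leave-one-out ranges were -0.12 to 0.025 for Paics, -0.025 to 0.098 for Atic, -0.065 to 0.083 for Impdh2, -0.10 to 0.017 for Umps, -0.049 to 0.059 for Ctps, -0.071 to 0.012 for Ctps2, -0.096 to 0.11 for Dguok, -0.030 to 0.021 for Hprt, -0.053 to 0.098 for Nme2 and -0.14 to 0.047 for Mthfd2. Without WT2 and cKO1 together the values were 0.022 for Paics, -0.082 for Impdh2, 0.0036 for Gmps, -0.028 for Dguok and 0.050 for Hprt. The range for Myc was -0.065 to 0.29. The cause of these changes was not tested. Each member had at least 74 estimated reads in each library, and how far depth limits the errors was not tested.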
